A study of Mus musculus with 96 samples.

Results

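The 8 genes described here, Dcn, Bgn, Lum, Ogn, Prelp, Aspn, Omd and Podn, encode small leucine-rich proteoglycans, and were taken by symbol from the 41575 gene symbols of the deposited count table. Small leucine-rich proteoglycans are secreted proteins with a curved core of leucine-rich repeats that lie on collagen fibrils, where they set fibril diameter and spacing. Several carry chondroitin, dermatan or keratan sulfate chains, and several bind growth factors of the TGF-beta and BMP family. They are known as products of fibroblasts, tenocytes, chondrocytes and osteoblasts, and decorin is abundant in tendon and skin.

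The study sequenced RNA from 16 tissues of 3-week-old mice, either wild-type or without a functional Scx gene in the whole body (Scx-/-), with 3 libraries per tissue and genotype and 96 in all. Scx encodes scleraxis, a basic helix-loop-helix transcription factor of tendon and ligament progenitors. The tissues were labelled muscle, bone, cartilage, adipose, heart, vascular, lung, kidney, bladder, liver, spleen, stomach, intestine, rectum, hippocampus and cortex, and whole organs were frozen at necropsy. The sex of the mice, the mouse behind each library and the deleted part of Scx were not given in the sources used here, so the p-values below measure the spread between libraries. No tissue labelled tendon was among the 16.

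Library totals ranged from 11244 to 1658192 counts with a median of 251640, and 16 of the 96 libraries held fewer than 100000. Levels are given as CPM, reads of a gene scaled to the total of its library, and carry no correction for gene length, so levels of different genes were not compared. Scx itself was counted in 12 of 48 wild-type libraries, in 8 of the 16 tissues, and was highest in a bone library at 156 CPM. It was at 0 in 47 of 48 Scx-/- libraries. The cartilage library labelled Scx-/- replicate 1 held 9 Scx counts, or 37.2 CPM, against 0, 28.2 and 3.63 CPM in the 3 wild-type cartilage libraries. In cartilage the Lum change and the count and median of the members are therefore given with and without it, and other values with it only. Several tissues held markers of other tissues. The adipose libraries gave 31.98 to 43.0% of their counts to 9 pancreatic enzyme genes and at most 0.0149% to 5 adipocyte genes, with Lep at 0. The cartilage libraries gave 11.9 to 15.2% to 8 skeletal muscle genes, beside 0.252 to 1.70% to 10 chondrocyte genes. Of these, 9 had counts and were higher in cartilage than in the mean of the other tissues by edgeR's adjusted p and a change above 2-fold, and Matn1 was at 0. By the same rule, 6 of 8 osteoblast genes and 6 of 6 tested neutrophil genes were higher in cartilage (13.4% of all genes). The bone libraries gave 2.35 to 9.31% of their counts to the 8 skeletal muscle genes. The vascular libraries, which the study set aside, gave 0.350 to 1.32% to 4 brown fat genes and 0.596 to 0.976% to 5 adipocyte genes, and vascular levels below are those of such tissue. In bulk tissue, fewer cells of a type and less RNA per cell cannot be told apart.

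On chromosome 13 (GRCm38, plus strand) 3 of the 8 genes are neighbours, in the order Aspn (49544443-49567565), Omd (49582462-49592822) and Ogn (49608046-49624501), with gaps of 14896 and 15223 bases. A further family gene, Ecm2, ends 11653 bases before Aspn. Dcn (97479609-97518143) and Lum (97565128-97572703) lie 46984 bases apart on the plus strand of chromosome 10, and Kera follows Lum after 34175 bases. Bgn is on chromosome X (73483602-73495933, plus strand), Prelp on chromosome 1 (133910304-133921414, minus strand) and Podn on chromosome 4 (108014791-108096445, minus strand). Prelp shares 350 exon bases with the antisense gene Gm15851, and Aspn shares 7 with Cenpp, which runs on the minus strand across Aspn, Omd and Ogn and had 154 counts in all 96 libraries together. Whether the counting used strand is not given in the sources used here, so Prelp reads cannot be told from reads of Gm15851 in that stretch.

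The 250 bases before the start of the chromosome 13 neighbours (RefSeq, GRCm38.p6, plus strand) are printed because the 3 adjacent genes are read below for likeness of pattern, and because scleraxis belongs to a protein class that binds E-boxes. Capitals mark each E-box, spelled CANNTG, a pattern whose reverse complement is the same pattern, so that both strands are covered. The windows are chr13:49544193-49544442 for Aspn, chr13:49582212-49582461 for Omd and chr13:49607765-49608014 for Ogn.
Aspn: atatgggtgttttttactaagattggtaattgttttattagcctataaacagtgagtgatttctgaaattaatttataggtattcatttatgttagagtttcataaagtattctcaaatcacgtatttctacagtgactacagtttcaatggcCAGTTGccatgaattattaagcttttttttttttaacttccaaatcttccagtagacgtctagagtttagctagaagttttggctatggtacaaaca
Omd: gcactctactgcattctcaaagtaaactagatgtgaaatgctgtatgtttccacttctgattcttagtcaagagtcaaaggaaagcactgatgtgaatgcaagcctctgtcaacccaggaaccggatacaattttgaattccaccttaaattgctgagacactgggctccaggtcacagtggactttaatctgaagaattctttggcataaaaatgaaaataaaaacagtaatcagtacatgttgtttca
Ogn: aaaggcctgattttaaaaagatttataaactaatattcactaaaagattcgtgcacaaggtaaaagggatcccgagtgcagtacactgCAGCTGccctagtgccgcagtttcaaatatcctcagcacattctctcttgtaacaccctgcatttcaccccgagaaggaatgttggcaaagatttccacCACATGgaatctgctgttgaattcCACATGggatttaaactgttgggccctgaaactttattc
The Ogn window held 3 E-boxes, a CAGCTG 162 bases and CACATG 63 and 39 bases before the start. The Aspn window held 1, CAGTTG at 97 bases, and the Omd window held 0. Of all 32851 RefSeq promoter windows of this length, 66.2% held at least 1 and 12.2% held 3 or more. CAGCTG alone was in 13% of windows, CACATG or its reverse complement in 12.3%, and CAGTTG or its reverse complement in 11.1%. Bgn had 1 E-box, Prelp had 0, and Podn, with 2 start sites in the table, had 1 and 3. A match is a description of the letters and not a binding site, and Dcn and Lum were not in the promoter table.

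Detection set how far each gene could be read. Dcn was counted in all 96 libraries (30137 counts in total) and Bgn in 95 (7950 counts). Prelp was counted in 84 libraries, Ogn in 78, Lum in 74 and Aspn in 64. Omd was counted in 27 libraries with 439 counts, and Podn in 37 with 287. Omd was at 0 in all 6 libraries of 7 tissues (adipose, heart, hippocampus, intestine, liver, rectum and stomach), Podn in those of 3 (adipose, hippocampus and vascular), and Lum and Aspn in those of spleen. A count of 0 in a spleen library allows a level of up to 6.42 to 16.5 CPM, depending on the library, for counting error only. The wild-type heart library with 11244 counts had 0 for 5 of the 8 genes, and its Prelp value of 1156 CPM rested on 13 counts.

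The 8 genes together took 0.751% ± 0.0615 (SD, n = 3) of wild-type bladder counts, 0.507% ± 0.0935 in bone and 0.482% ± 0.115 in cartilage, and 0.0102% ± 0.00215 in cortex. In the plot of mean levels, bone, cartilage, vascular and bladder are bright for most genes, and spleen, hippocampus and cortex are dark.

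**Figure D1:**
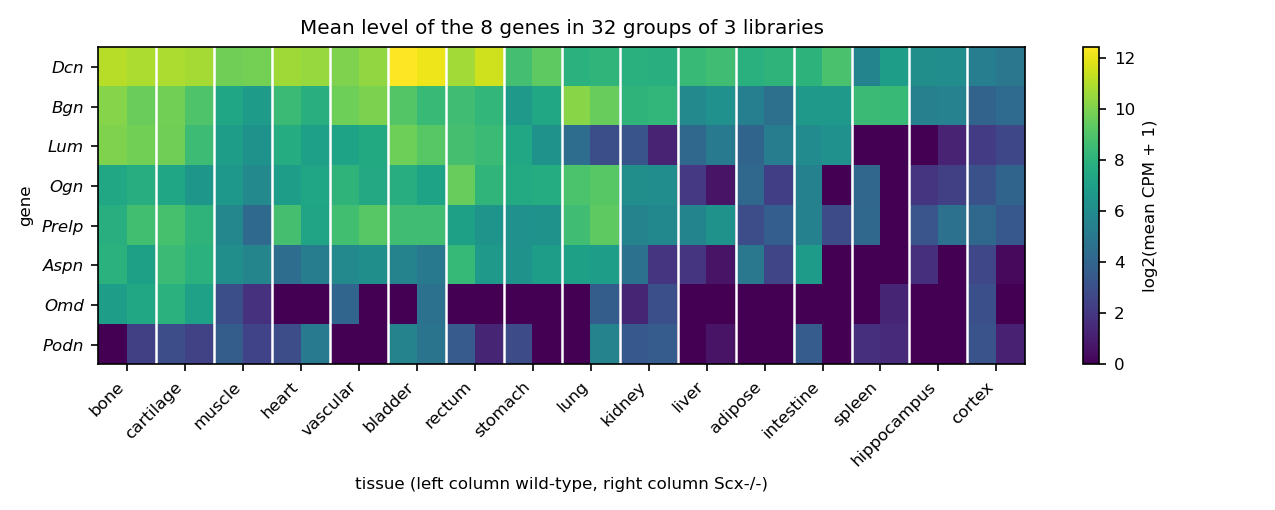
Mean level of the 8 genes, as log2(mean CPM + 1), in the 32 groups of 3 libraries, with wild-type in the left and Scx-/- in the right column of each tissue. Dcn reached its highest mean over both genotypes in bladder (4949 CPM) and its lowest in cortex (34.2 CPM), and Omd was bright in bone and cartilage and near 0 in most other tissues.

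Decorin (Dcn), which coats type I collagen fibrils and binds TGF-beta, was highest in bladder. The 6 bladder libraries ranged from 4101 to 5997 CPM with a mean of 4949 ± 728 (SD, n = 6), above rectum at 2305 ± 1003, bone at 2012 ± 318 and cartilage at 1792 ± 502. Heart (1519 CPM), vascular (1184 CPM) and muscle (874 CPM) followed, and cortex was lowest at 34.2 CPM. The fold from bladder to cortex was 145, yet in all 15 pairs of neighbours in this order the libraries overlapped. Rectum overlapped bladder through 1 library, a Scx-/- library at 4180 CPM. Against the mean of the other 15 tissues in one edgeR fit over all libraries, Dcn was higher by 3.35 ± 0.23 (SE) log2 in bladder (adjusted p = 8.21e-35), by 2.11 ± 0.26 in cartilage and by 1.84 ± 0.27 in bone. In cortex it differed by -4.00 ± 0.45 log2 and in hippocampus by -3.28 ± 0.44.

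Biglycan (Bgn), a close relative of decorin found in bone matrix, had another order. Lung (959 ± 378 CPM, SD, n = 6), bone (941 CPM), vascular (898 CPM) and cartilage (689 CPM) stood first, and bladder followed at 442 CPM. The only neighbours in the order that did not overlap were kidney (282 CPM) and stomach (137 CPM). In edgeR, Bgn was higher than the mean of the other tissues by 2.14 ± 0.29 log2 in bone, 2.11 ± 0.29 in vascular, 1.99 ± 0.29 in cartilage and 1.90 ± 0.30 in lung (adjusted p = 2.4e-08). Lung was the tissue where Dcn and Bgn were both called, in opposite directions, and Dcn there differed from the mean of the other tissues by -1.44 ± 0.38 log2 (edgeR adjusted p = 0.00175). In spleen Dcn was called lower, at -2.83 log2, and Bgn, at 0.74, lay below the 2-fold change that a call needed.

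Asporin (Aspn), which resembles decorin but carries no glycosaminoglycan chain, was highest in cartilage at 299 ± 113 CPM (SD, n = 6), then rectum (211 CPM), bone (190.0 CPM) and lung (124 CPM). In lung its values ran from 0 to 342 CPM within the wild-type group alone. Neighbours in its order overlapped throughout.

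Lumican (Lum), which regulates collagen fibril assembly in cornea and skin, was highest in bone at 960.0 ± 193 CPM (SD, n = 6), then bladder (699 CPM), cartilage (604 CPM) and rectum (390.1 CPM). It was near 0 in kidney (4.86 CPM), cortex (4.53 CPM) and hippocampus (0.69 CPM). Prelp, thought to link basement membranes to the collagen matrix, was instead highest in lung (515 ± 282 CPM) and vascular (497 CPM), followed by bladder (389 CPM) and cartilage (361 CPM). The order of these overlapping tissues depended on the measure: Prelp was highest in cartilage in wild-type libraries alone, and in vascular by the median of libraries or on TMM-scaled totals. Both orders overlapped at every step.

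Osteomodulin (Omd), a bone matrix protein that binds mineral, was counted mainly in the 2 skeletal tissues. Its cartilage libraries held 386, 157 and 189 CPM in wild-type and 190.2, 34.1 and 188 CPM in Scx-/-. The bone libraries held 217, 83.7 and 63.7 CPM and 58.2, 113 and 331 CPM. The lowest of these 12 values lay within the 21.1 to 41.2 CPM that the highest cortex, kidney, lung, muscle, vascular and bladder libraries reached. Every bone library exceeded every bladder library, the next tissue at a mean of 12.2 CPM, and cartilage and bone overlapped.

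Osteoglycin (Ogn), also called mimecan and known from bone and vessel walls, followed a soft tissue order with lung at 534 ± 156 CPM (SD, n = 6), rectum at 508 CPM, vascular at 221 CPM, stomach at 196 CPM and bone at 190.0 CPM. Liver was lowest at 1.90 CPM. Podocan (Podn), first described in the kidney glomerulus, was highest in bladder at 35.8 ± 20.1 CPM, then lung (23.0 CPM), heart (20.4 CPM) and kidney (10.4 CPM). The lung mean came from 2 Scx-/- libraries, and the heart mean largely from 1 at 95.9 CPM.

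A tissue call needed an adjusted p under 0.05 and a change above 2-fold against the mean of the other tissues. The number of members called was read against the share of all 13459 genes in the fit that were called. In bone 7 of 8 were higher (8.49% of all genes), in cartilage 7 (13.4%), in vascular 5 (7.93%) and in heart 5 (11.5%). In bladder the number was 6 (21.1%), in muscle 6 (16.1%), in rectum 4 (13.6%), in lung 4 (15.2%), in stomach 3 (18.0%) and in kidney 2 (22.9%). Podn was the member not called in bone and cartilage. None of the 8 was higher in cortex, where 35.5% of all genes were, nor in hippocampus (23.9%), spleen (19.0%), liver (17.1%), intestine (8.77%) or adipose (4.97%). In all, 49 of 128 member and tissue pairs were higher and 11 lower, against 16.1% and 1.40% of all gene and tissue pairs. In these edgeR contrasts all 6 members with a group at 0 (all but Dcn and Bgn) had unusable errors in 5 or more tissues, so the fit was repeated by limma-trend on log2 CPM, a choice made after seeing the data. There 33 pairs were higher (9.47% of all pairs) and 30 lower (7.42%), so that lower calls were more frequent over all genes too, and higher calls were fewer in 7 tissues. Bone went from 7 to 5 (without Ogn and Aspn), heart from 5 and muscle from 6 to 1 (Dcn), kidney from 2 to 0, and lung (Aspn), stomach (Lum) and vascular (Lum) had 1 fewer. Cartilage, bladder and rectum had the same members higher in both fits. In the limma fit 6 of 8 were lower in hippocampus (9.91% of all genes) and in cortex (6.01%), 5 in spleen (9.50%) and 4 in intestine (17.6%).

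Among the other 10 small leucine-rich proteoglycan family genes, of which 8 entered the fit, 6 were higher in cartilage and 4 in bone. Fibromodulin (Fmod), abundant in tendon and cartilage, averaged 552 ± 270 CPM (SD, n = 6) in cartilage and 486 ± 171 in bone, and chondroadherin (Chad), a cartilage protein that binds chondrocytes, 384 ± 304 and 244 ± 273. Ecm2, counted in 63 libraries, was highest in vascular at 154 ± 147 CPM. Opticin (Optc) was highest in bladder at 85.5 ± 39.6 CPM. Kera, Epyc, Nyx, Tsku, Podnl1 and Chadl were each counted in 34 or fewer of 96 libraries. Of the 12 collagen genes listed as binding partners, 12 were higher in cartilage, 11 in bone, 11 in bladder, 9 in muscle, 9 in rectum and 7 in vascular. Of 29 genes for the linker and for chondroitin or dermatan sulfate chains, 23 entered the fit, with 11 higher in cortex, 8 in bladder, 5 in cartilage and 2 in bone. Of the 12 genes for keratan sulfate, 11 entered the fit, with 4 higher in each of cortex, hippocampus, lung and rectum, 3 in bladder, 1 in bone and 0 in cartilage. The shares of all genes higher in these tissues are those given above, and in cortex the 4 of 11 lay close to 35.5%. Nothing particular to either list is read from these counts.

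Likeness of pattern was taken as Pearson's r of mean log2(CPM + 1) over the 32 groups, which share libraries and depth between genes, as a description without a test. The most alike pair was Dcn and Lum at 0.90. Aspn followed Lum at 0.82 and Ogn at 0.81, and Bgn followed Ogn at 0.76. The neighbours on chromosome 13 did not form a block: Omd correlated with Aspn at 0.51 and with Ogn at 0.30. Podn, the gene with the fewest counts in total, had no r above 0.40 with a member.

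**Figure D2:**
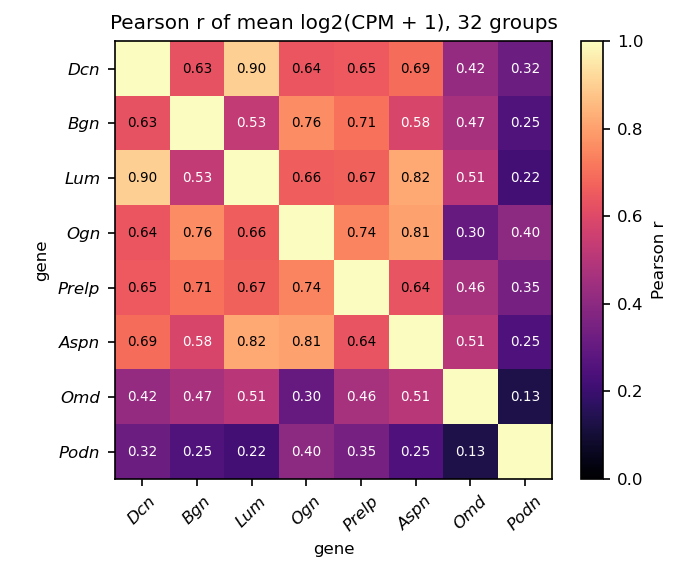
Pearson r between the 8 genes, each cell computed over 32 group means of log2(CPM + 1), with the colour scale from 0 to 1. Dcn and Lum stand highest at 0.90, Aspn with Lum and Ogn at 0.82 and 0.81, and the Omd and Podn cells are the darkest, down to 0.13 between them.

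Among 17412 genes with at least 10 CPM in a group, 3 are named for each member. Besides Lum, Dcn was followed by Col3a1 (r = 0.87) and Postn (0.83), which encode a fibrillar collagen and periostin. Lum was followed by Dcn (0.90), Col5a2 (0.86) and Flnc (0.86). Bgn was followed by Serpinh1 (0.89), a collagen chaperone, Sparc (0.87) and Pcolce (0.87), and Ogn by Ahnak (0.89), Col4a1 (0.88) and Mgp (0.88). Prelp was followed by Ptgis, Fkbp9 and Mgp, each at 0.83, and Aspn by Flnc (0.85), Col6a1 (0.84) and Postn (0.83). Omd was followed by Snorc (0.92), a cartilage proteoglycan, and by Ibsp (0.90) and Bglap (0.90), which encode bone matrix proteins. For Podn the list was Tnfsf12 (0.82), Igf2bp1 (0.80) and Nbeal1 (0.73), at levels where most groups held few counts.

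The effect of Scx loss was tested tissue by tissue with edgeR's quasi-likelihood test, 3 libraries against 3. Of 128 member and tissue pairs, 116 had a count and were tested. None passed an adjusted p under 0.05 (0.0914% of all gene and tissue pairs did), with either edgeR or DESeq2, and 10 had an unadjusted p under 0.05 in edgeR, or 8.62% against 4.01% of all pairs. The study's thresholds for differentially expressed genes, an unadjusted p under 0.05 and a change above 2-fold, were passed by 6 pairs (3.71% of all pairs). The libraries of the genotypes did not overlap in 16 of the 116 (7.96% of all pairs). The share among members was thus above the background for an unadjusted p under 0.05 and for non-overlap, and close to it at the study's thresholds. For 3 libraries against 3 without ties, the permutation p of non-overlap is 0.1. The background for non-overlap also holds genes with few counts, whose libraries can be tied at 0. Nothing particular to the members is read from these shares. By mean CPM, 67 pairs were lower and 49 higher in Scx-/-.

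**Figure D3:**
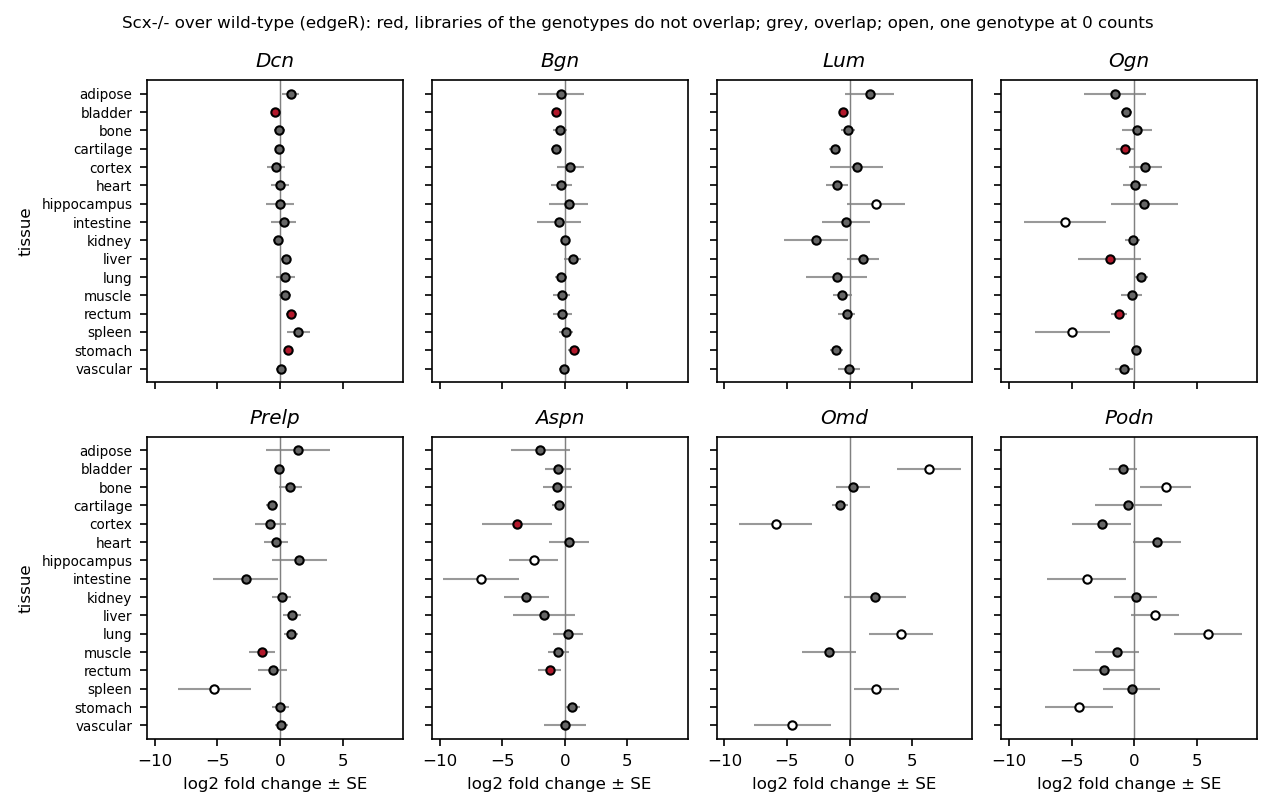
Log2 fold change of Scx-/- over wild-type with its standard error (edgeR, n = 3 libraries a group) for each gene and tissue. Red points mark genotypes whose libraries do not overlap, grey points those that overlap, and open points pairs with 1 genotype at 0 counts, whose fitted value is no measure of size. Dcn points lie near 0 in most tissues, and the errors grow from Dcn towards Omd and Podn.

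In cartilage, all 8 members had a lower mean CPM in Scx-/-, where 49.5% of all genes tested did. The median log2 fold change over the 8 was -0.67, against 0.00 for all genes with at least 50 counts. Lum had the largest fitted difference of the 8, with 344, 1036 and 1168 CPM in wild-type and 455, 282 and 337 CPM in Scx-/-. The lowest wild-type library lay inside the Scx-/- range, and the other two lay above it. The log2 fold change was -1.18 ± 0.43 (SE) with an unadjusted p = 0.00613 that passed the study's thresholds (3.17% of all genes in cartilage), and an edgeR adjusted p = 0.769. Without the wild-type library with the highest value the change was -0.87, below the 2-fold threshold, and without the library labelled Scx-/- replicate 1 it was -1.38.

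Ogn was the member of cartilage whose libraries did not overlap. Wild-type held 175, 169 and 149 CPM and Scx-/- held 112, 77.9 and 94.2 CPM, a change of -0.74 ± 0.76 log2 (edgeR adjusted p = 0.791). For Prelp 1 library made the groups overlap. Wild-type held 491, 436 and 417 CPM, and the libraries labelled Scx-/- held 533, 97.4 and 188. The high value of 533 CPM was in the library with Scx counts, which also held 1013 CPM Fmod and 736 CPM Chad. Bgn had the same pattern, with 721, 1081 and 798 CPM in wild-type against 786, 385 and 366 CPM. Without the library labelled Scx-/- replicate 1, all 8 members were lower and their median change was -1.11. Without Scx-/- replicate 3 the count was 6 of 8 and the median -0.47, without wild-type replicate 2 it was 6 of 8 and -0.65, and with the replicate numbers as a block 7 of 8 and -0.76. The summed level of 10 fibroblast genes moved too, at 1.35, 6.72 and 6.48% of counts in wild-type and 2.29 to 2.96% in Scx-/-, and the low wild-type library also had the lowest Dcn and Lum of its group. The part of this in the results was not tested, and the list holds Col1a1, Col1a2 and Col3a1, which are partners of the members. Single markers of other tissues differed as well by edgeR's adjusted p, with Ucp1 at 237 against 12.7 CPM, Hba-a1 at 417 against 1367 CPM (both adjusted p = 0.047) and Ctrb1 at 208 against 865 CPM (adjusted p = 0.047). The 6 erythroid genes were split, with 2 higher and 2 lower at the study's thresholds and a median change of -1.56 log2.

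In muscle, 7 of 8 members had a lower mean, against 44.8% of all genes, and the median over members was -0.55 against 0.24 for all genes with at least 50 counts. With library totals in place of TMM factors as scaling, these medians were -0.75 and -0.02. Prelp did not overlap, with 32.9, 63.1 and 63.3 CPM in wild-type and 10.7, 28.5 and 13.9 CPM in Scx-/-, a change of -1.44 ± 1.01 log2 (edgeR adjusted p = 0.771), and the first wild-type value is 1 count of 30409. Without wild-type replicate 3, 4 of 8 members were lower in muscle. Their median was then 0.04, against 0.37 for all genes with at least 50 counts. Medians with other libraries left out ran from -0.96 (against 0.07) to -0.34 (against 0.54). With the replicate numbers as a block the median was -0.15, against 0.47. Fibroblast genes summed to at least 1.03% of counts in each wild-type and at most 0.713% in each Scx-/- muscle library. Ucp1 of the brown fat list (93.9 CPM in wild-type, 0 in Scx-/-) and Hbb-bs of the erythroid list (149 CPM and 0) were called lower by edgeR's adjusted p, though the libraries overlapped for both. The 4 brown fat genes summed to 0.0559 to 0.142% of wild-type and 0.0945 to 0.118% of Scx-/- counts, and the 6 erythroid genes to 0.0188 to 0.0604% and 0.0272 to 0.167%. The part of these in the members' values and in the Fmod difference given below was not tested. Dcn, the member without a lower mean in muscle, held 658, 873 and 993 CPM against 879, 1076 and 764 CPM.

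**Figure D4:**
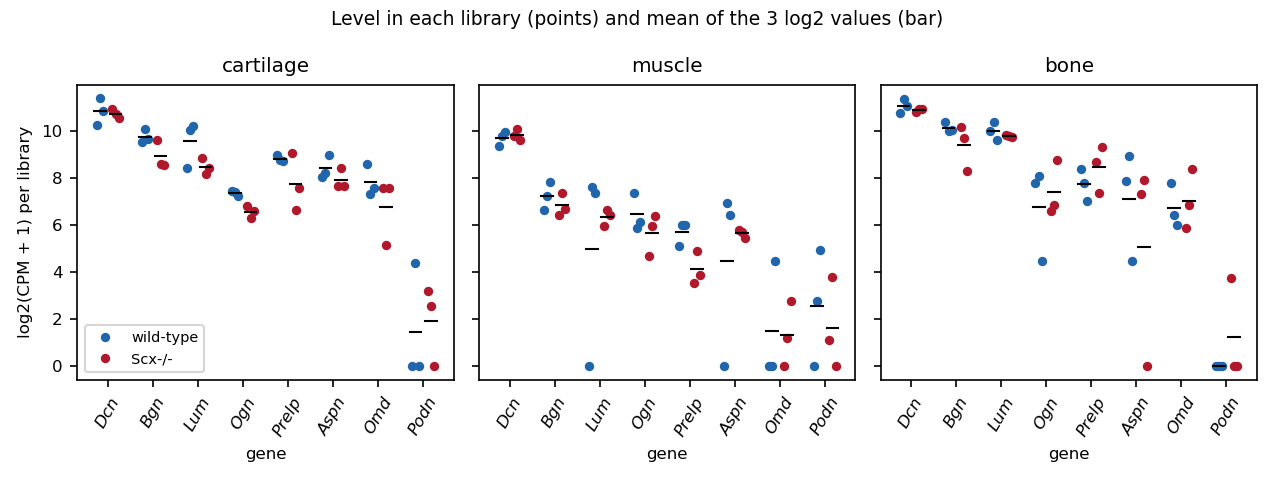
Level of the 8 genes, as log2(CPM + 1), in each library of cartilage, muscle and bone, with wild-type in blue, Scx-/- in red and bars at the mean of 3 log2 values. In cartilage the blue and red points of Ogn separate (149 CPM or more against 112 CPM or less), and in bone the points of every gene overlap.

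Of the family genes tested tissue by tissue, Fmod, or fibromodulin, in muscle was the one past the adjusted threshold between genotypes. In muscle, where 0.0482% of all genes were called, Fmod held 32.9, 43.6 and 276 CPM in wild-type and 2.37, 7.77 and 6.93 CPM in Scx-/-, a change of -4.28 ± 0.98 log2 (edgeR adjusted p = 0.0322). The groups did not overlap, though the lowest wild-type value, 32.9 CPM, is 1 count of 30409, and the call rested on single libraries. Without wild-type replicate 3 the change was -2.38 with an adjusted p = 0.856. The call was also lost with the replicate numbers as a block. It was lost without each Scx-/- library too, where the change ran from -4.54 to -3.93. Kera, at 43.9 against 0.396 CPM, had an adjusted p = 0.0614, and Chad had 18 counts in wild-type and 0 in Scx-/- muscle. Tendon marker genes, among them Fmod and Kera, summed to 0.0193 to 0.0764% of wild-type and 0.00309 to 0.0133% of Scx-/- muscle counts, and the part of attached tendon in these values was not tested.

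In bone, 4 of 8 members were lower and 4 higher, and all overlapped between genotypes. Lum held 1014, 1322 and 785 CPM in wild-type and 910.4, 877 and 852 CPM in Scx-/-, a change of -0.12 ± 0.56 log2. Bgn held 1318, 1021 and 1040 CPM against 1139, 821 and 308 CPM, with the lowest value resting on 13 counts.

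Bladder, the tissue richest in Dcn, had 7 of 8 members lower by mean CPM (52.4% of all genes), with a median of -0.54 against -0.08 for all genes with at least 50 counts. Without wild-type replicate 3 the median was -0.36 and 6 of 8 were lower in the fit. Dcn, Bgn and Lum did not overlap. Dcn held 5997, 4740 and 5667 CPM in wild-type and 4496, 4101 and 4695 CPM in Scx-/-, a small difference of -0.38 ± 0.19 log2 (edgeR adjusted p = 0.804). Bgn held 456, 671 and 499 CPM against 337, 340.2 and 349.8 CPM, or -0.74 ± 0.32 log2. Lum held 803, 607 and 1013 CPM against 589, 581 and 601 CPM, or -0.52 ± 0.28 log2. The 8 genes together fell outside each other's range, at 0.683 to 0.801% of wild-type and 0.569 to 0.630% of Scx-/- counts.

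Omd went the other way in bladder. It had 0 counts in the 3 wild-type libraries, which allows up to 1.89 CPM over the group, and 26.7, 9.36 and 37.0 CPM (23 counts) in Scx-/-. Its pooled Scx-/- level was 12.5-fold above that limit, a fold that leaves out the spread between libraries. Omd passed the study's thresholds (3.76% of all genes in bladder) in the reported fit and in 11 of 11 alternatives, and had an edgeR adjusted p = 0.804. The 8 osteoblast genes summed to 0.00607 to 0.0134% of wild-type and 0.00288 to 0.00994% of Scx-/- bladder counts, with 4 and 3 of them counted and Sp7, Dmp1 and Phex at 0 in both.

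The collagens on which these proteoglycans lie did pass in bladder, where 0.112% of all genes were called. Of 12 partner collagens 4 fell and 0 rose. Col1a1 changed by -0.96 ± 0.17 log2 (11850 to 6389 CPM, edgeR adjusted p = 1.46e-04) and Col1a2 by -0.97 (adjusted p = 2.3e-04), the chains of type I collagen. Col3a1 changed by -1.05 (edgeR adjusted p = 7.86e-05) and Col14a1, a collagen on fibril surfaces, by -1.75 (adjusted p = 0.00255). Pcolce, an enhancer of procollagen processing, changed by -1.67 log2 (edgeR adjusted p = 0.0045), and Dpt, which encodes the decorin-binding protein dermatopontin, by -1.55 (adjusted p = 0.0439). Over 12 alternatives the Col1a1 change ran from -1.11 to -0.79. The calls held in 11 of them for Col1a1, Col1a2 and Col3a1, in 10 for Col14a1 and Pcolce and in 3 for Dpt, and a filter on low counts ended all 6. Fibroblast genes summed to 2.72, 3.10 and 4.11% of wild-type and 1.57, 1.92 and 1.95% of Scx-/- bladder counts, and the part of cell composition in the lower Dcn, Bgn and Lum was not tested. Of the 29 chondroitin or dermatan sulfate genes (27 tested), the 12 keratan sulfate genes (9 tested), the 15 receptors and the 16 ligands, 0 passed an adjusted p in bladder.

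In rectum no member passed either threshold. Of 7 members tested, 6 had a lower mean in Scx-/-, against 42.6% of all genes, and the median change was -0.59 against 0.18 for all genes with at least 50 counts. Without wild-type replicate 1 these were 4 of 7 and -0.05, against 0.44. Dcn, the exception, was higher in Scx-/-, at 4180, 2448 and 2235 CPM against 2037, 1503 and 1427 CPM in wild-type, a change of 0.90 ± 0.45 log2 without overlap (edgeR adjusted p = 0.706). Ogn was lower without overlap, at 292, 290.3 and 258 CPM against 446, 938 and 824 CPM, a change of -1.21 ± 0.66 log2. Aspn was lower as well, at 0, 152 and 162 CPM against 202, 168 and 583 CPM. The rectum libraries of the genotypes differed in their makeup. Squamous epithelium genes took 0.639 to 1.46% of Scx-/- counts and 0.0012 to 0.0028% of wild-type counts with 5 of 7 genes at 0. Skeletal muscle genes took 0.752 to 1.14% of Scx-/- and 0.0221 to 0.474% of wild-type counts, with 3 of 8 (Acta1, Ckm and Tnnt3) higher by edgeR's adjusted p, and smooth muscle genes took 0.158 to 1.73% against 1.95 to 2.28%. The part of this in the values was not tested.

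In stomach, 5 of 7 members tested had a higher mean in Scx-/- and 2 a lower one, where 44.8% of all genes were lower. Dcn and Bgn were both higher in Scx-/- without overlap. Dcn held 359, 524 and 366 CPM in wild-type and 600, 557 and 773 CPM in Scx-/-, or 0.60 ± 0.30 log2, and Bgn held 139, 86.8 and 82.5 CPM against 167, 194 and 156 CPM, or 0.73 ± 0.50 log2 (edgeR adjusted p = 0.797 for both). Lum differed in the other direction and passed the study's thresholds (3.31% of all genes in stomach), with 97.6, 248 and 162 CPM in wild-type and 80.0, 61.9 and 104 CPM in Scx-/-, a change of -1.07 ± 0.52 log2 (adjusted p = 0.797). The genotypes overlapped for Lum, and without wild-type replicate 2 its change was -0.67. The pancreatic gene Pnlip was at 24.9 against 406 CPM and the globin gene Hbb-bs at 99.5 CPM against 0 in these libraries (edgeR adjusted p = 0.0393 and 7.66e-04). Of the 6 erythroid genes, 1 was higher and 1 lower at the study's thresholds, and their median change was 2.34 log2.

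**Figure D5:**
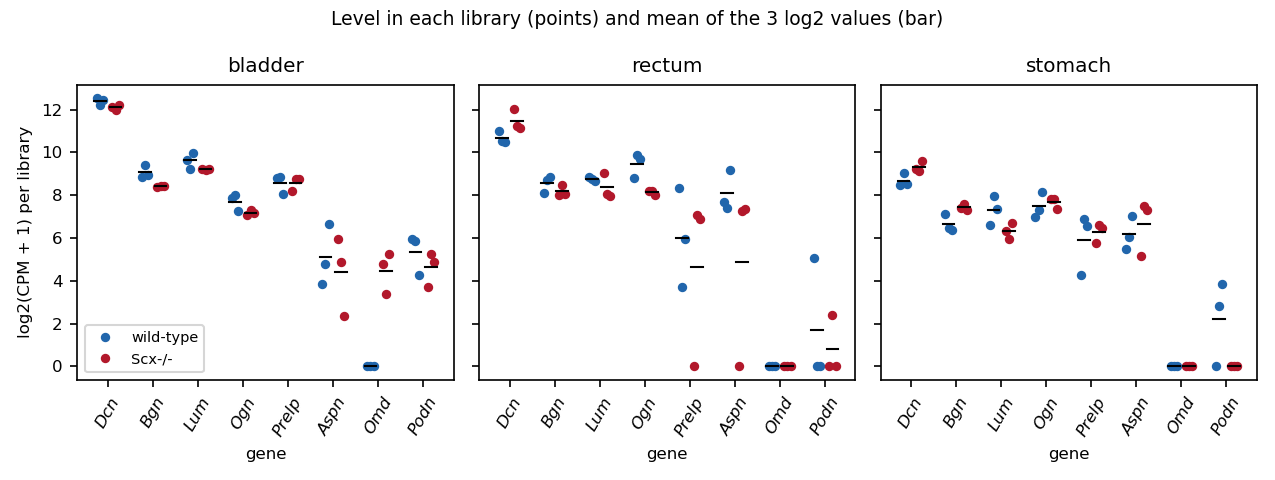
Level of the 8 genes, as log2(CPM + 1), in each library of bladder, rectum and stomach, with wild-type in blue, Scx-/- in red and bars at the mean of 3 log2 values. Dcn is lower in Scx-/- bladder (4695 CPM or less against 4740 CPM or more) and higher in Scx-/- rectum and stomach, and Omd has counts in bladder in Scx-/- only.

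The other calls at the study's thresholds rested on few counts. Folds here set the pooled level of the counted group against the level that 0 counts allow, without the spread between libraries. Podn had 0 counts in wild-type lung and 27 in Scx-/- lung, in 2 of 3 libraries, a fold of 8.73 (2.69% of all genes in lung). Omd had 14 counts in wild-type cortex, 13 of them in 1 library, and 0 in Scx-/- cortex, a fold of 5.45 (2.77%). Aspn had 39 counts in wild-type and 0 in Scx-/- intestine, a fold of 2.38 (4.25%), where the Scx-/- libraries held only 26500 to 54955 counts. Ogn in intestine (29 against 0 counts, a fold of 1.77) and spleen (13 against 0 counts, a fold of 2.76) did not overlap, nor did Ogn in liver (3 against 1 counts) and Aspn in cortex (17 against 1 counts). Prelp in spleen had 22 counts in 2 wild-type libraries and 0 in Scx-/-.

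In heart, vascular, kidney, lung, liver, adipose and hippocampus the members with counts in both genotypes overlapped, except for Ogn in liver. Means were higher in Scx-/- for 5 of 7 members in vascular and liver, 5 of 8 in lung and 4 of 6 in hippocampus. There 52.6, 48.5, 49.2 and 43.3% of all genes were lower. In kidney 4 of 8, in adipose 3 of 6 and in heart 3 of 7 members were higher (56.6, 35.8 and 48.3% of all genes lower). Vascular Dcn held 860, 1106 and 1095 CPM in wild-type and 1546, 1011 and 1487 CPM in Scx-/-. Lung Bgn held 661, 1477 and 1391 CPM against 669, 884 and 671 CPM. Kidney Bgn held 223, 248 and 336 CPM against 317, 359 and 206 CPM. These groups were not separated at this depth.

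Averaged over the 16 tissues in one fit, no member was called by edgeR, where 0.193% of all genes were, nor by limma (0.721%). Unadjusted, 1 of 8 had a p under 0.05 in each. In edgeR Ogn came nearest, with -1.01 ± 0.34 log2 (unadjusted p = 0.0034, adjusted p = 0.307), and in limma it stood at -0.38 ± 0.21 (adjusted p = 0.548). Dcn, the nearest in limma, stood at 0.26 ± 0.16 log2 in edgeR (adjusted p = 1.00) and 0.33 in limma (unadjusted p = 0.0326, adjusted p = 0.430), Prelp at -0.38 ± 0.25 and Bgn at -0.08 ± 0.18 in edgeR. Lum, Aspn, Omd and Podn had no usable standard error in edgeR, while Ogn and Prelp, which also have groups at 0, had one. The averages of Ogn and Prelp include these groups, whose fitted values are no measure of size. In the fits by tissue they were -5.51 log2 in intestine and -4.95 in spleen for Ogn, and -5.24 in spleen for Prelp. Of the partner genes, Col1a1 changed by -0.65 ± 0.14 log2 (edgeR adjusted p = 0.00419) and Pcolce by -0.94 ± 0.21 (adjusted p = 0.0111), calls that held in 5 and 4 of 8 alternatives. The replicate block ended the call of Col1a1 (edgeR adjusted p = 0.193) and kept that of Pcolce. Among marker genes, Fbln1 of the fibroblast list changed by -1.09 (edgeR adjusted p = 0.0337, held in 5 of 8 alternatives). The globin gene Hbb-bs was called as well (edgeR adjusted p = 1.26e-05), but not without replicate 2 or with libraries under 100000 counts left out, where its error was unusable. Hbb-bs was lower in Scx-/-, while the median change over the 6 erythroid genes was 0.39 log2.

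The genotype difference was also asked for variation between tissues and for muscle, bone and cartilage against the other 13. By edgeR, 0 of 8 members varied between tissues (0.0669% of all genes did) and 0 differed in the musculoskeletal contrast (0.00743%), with 1 and 0 at an unadjusted p under 0.05. The limma fit gave 0 and 0 members as well (2.24% and 0.111% of all genes), with 0 and 0 at an unadjusted p under 0.05. In the average of muscle, bone and cartilage the limma fit called 0 members but did call the family gene Kera lower (adjusted p = 0.00638, 0.312% of all genes called), where edgeR gave an adjusted p = 0.236. Without replicate 2 or 3 the limma adjusted p of Kera was 0.646 and 0.304. The test for variation between tissues did not call Dcn (edgeR adjusted p = 1.00), but it does not set bladder against rectum directly. Whether the Dcn difference differs between bladder and rectum was not tested.

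The order of tissues was alike in both genotypes for the well counted genes. Spearman's rho between the 16 wild-type and the 16 Scx-/- tissue means, given as a description, was 0.98 for Dcn, 0.97 for Lum, 0.95 for Bgn, 0.87 for Ogn, 0.84 for Prelp and 0.79 for Aspn. It was 0.44 for Omd and 0.31 for Podn, the genes with the fewest counts.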

How the data were processed

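The deposited table holds raw counts of reads per gene, which the authors made from pooled, barcoded 3' libraries (multiplexed RNA-seq, Nextera XT, Illumina X-Ten). Per the submitters' processing notes, Bowtie2, HTSeq and mm10 were used. For versions, gene annotation, strand setting and molecular identifiers, nothing was given in the sources used here. Gene positions came from GENCODE (GRCm38) and promoters from RefSeq (GRCm38.p6). CPM were computed on library totals. Genotypes were compared per tissue, and tissues and averages in one fit over 96 libraries, with edgeR 4.0.16 (quasi-likelihood test, TMM scaling, genes with a count; filterByExpr in the joint fit) in R 4.3.3, with Benjamini-Hochberg adjustment over all genes tested. Calls of a tissue against the mean of the others also needed a change above 2-fold, in edgeR and in limma. The same scripts were tested on simulated data. Alternatives were DESeq2 1.42.0, other scalings, a filter on low counts, a replicate block, libraries under 100000 counts left out and each replicate left out. The limma 3.58.1 fit (limma-trend, prior count 2) was added after seeing the data. The interval behind a count of 0 uses 3 counts and covers counting error only. Folds against a group at 0 are pooled levels over this limit and hold no error of the counted group. The members and gene lists were chosen with earlier results of these data known. Named genes were the members, the other family genes, Scx, the 3 genes most like each member, and list genes past an adjusted p of 0.05 between genotypes in a tissue with a member past either threshold or in the average. Kera, Chad, Ucp1 and Hbb-bs in muscle, the osteoblast genes in bladder and the skeletal muscle genes in rectum were named after their values were seen. Python 3.11.15 and matplotlib 3.10.9 were used for levels and figures.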

Additional observations from a re-analysis of the deposited data

Results flagged for a closer look

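Dcn and Bgn were singled out because every Scx-/- library lay below every wild-type library in one tissue and above it in another. For Dcn the log2 fold change of Scx-/- over wild-type was -0.38 in bladder, 0.90 in rectum and 0.60 in stomach. For Bgn it was -0.74 in bladder and 0.73 in stomach. The differences between these tissues were not tested pair by pair, and the joint edgeR test for variation between tissues called neither gene (adjusted p = 1.00 for both). Groups held 3 libraries, so single outlying libraries were not tested.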

How the results depend on the processing

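No member passed an adjusted p under 0.05 between genotypes in a tissue under any alternative run. The number of pairs past the study's thresholds, 6, was 2 with a replicate block, 3 with the filter on low counts and 2 to 10 when 1 replicate was left out (10 without wild-type replicate 1, 2 without wild-type replicate 3 or Scx-/- replicate 2). Of the 6 pairs themselves, the block kept 2, the filter kept both of the 2 it still tested, and the left-out replicates kept 2 to 5. Same-numbered libraries did not deviate together (correlations -0.235 to 0.122), so the paired fit shares only a number, and the block ended the Fmod call in muscle (log2 change -3.55, adjusted p = 0.999). Lower tissue calls went from 11 to 30 under limma-trend, as the share over all genes went from 1.40 to 7.42%. The highest tissue held for 5 of 8 members in Scx-/- libraries alone and for 6 of 8 in wild-type libraries alone, by the median and on TMM-scaled totals. The average of Bgn turned from -0.08 to 0.0195 with libraries under 100000 counts left out, and ran from -0.18 to 0.049 with 1 replicate left out (0.049 without replicate 3). The bladder collagen calls were lost under the filter on low counts (Col1a1 adjusted p = 0.226). The causes were not tested. Of 78 alternatives of summary results 71 kept their side and 7 moved. For single pairs and averages, 307 alternatives kept their direction and side, 52 lost and 7 gained a call, and 2 reversed. Depth limits Omd and Podn, and Lum and Aspn outside matrix-rich tissues.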
